A study of Drosophila melanogaster with 18 samples.

Results

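Knockdown of M1BP was examined in fat bodies that all expressed vertebrate ZKSCAN3, so that ZKSCAN3 was present on both sides of the comparison. The libraries were chosen by their labels, with earlier results of these data known. They were 2 RNA-seq libraries of M1BP RNAi + ZKSCAN3 fat bodies (cgGal4>M1BP-RNAi;HA::ZKSCAN3) and 2 of ZKSCAN3 fat bodies (cgGal4>HA::ZKSCAN3), 4 of the 18 samples of the series. All came from male larvae of the third instar feeding stage (L3F) kept on standard food, and each library held RNA of 10 pooled fat bodies with the gonads removed. The other male libraries, 2 of M1BP RNAi (cgGal4>M1BP-RNAi) and 2 of WT (cgGal4>WT), entered the same fit and give the same knockdown without ZKSCAN3. Wild type female fat bodies of the wandering stage (L3W, 2 libraries) and of L3F (2 libraries), and ChIP-seq peaks of ZKSCAN3 in S2 cells, a Drosophila cell line, were read beside them. Every male library carried the driver cgGal4, a collagen gene enhancer active in fat body and in hemocytes, the blood cells of the larva. The M1BP RNAi + ZKSCAN3 larvae carried the hairpin transgene in addition, so its insertion, its genetic background and the number of UAS transgenes cannot be told apart from the loss of M1BP. Nothing in the labels says whether the 2 libraries of a genotype came from separate crosses, so p-values measure only the spread between these libraries.

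M1BP is a Drosophila zinc finger protein that binds Motif 1, a sequence element of core promoters found mainly at broadly used genes, where RNA polymerase II often pauses. ZKSCAN3 is a vertebrate zinc finger protein with KRAB and SCAN domains, known in mammalian cells as a repressor of autophagy and lysosome genes. The larval fat body stores fat and protein, breaks fats down in mitochondria and peroxisomes, secretes the immune peptides of the larva and starts autophagy when the larva leaves the food. The comparison asks which genes still respond to M1BP RNAi when ZKSCAN3 is there.

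Total counts were 64346768 and 75394345 in M1BP RNAi + ZKSCAN3 libraries and 65861894 and 60708492 in ZKSCAN3 libraries. Levels are given as CPM, counts scaled to a common library size after TMM, a factor that corrects for a few very abundant genes. The leading 10 genes held 44.6% and 34.7% of all counts in M1BP RNAi + ZKSCAN3 libraries, against 52.7% and 50.7% in ZKSCAN3 libraries. The marker genes of fat body were abundant in all 4 libraries, with summed CPM of 291000 and 192300 in M1BP RNAi + ZKSCAN3, against 444800 and 418300 in ZKSCAN3. All 11 had negative log2 fold changes and none passed the test, while DESeq2 called 4 with all 8 male libraries. Fbp1, a receptor for storage proteins, had 16920 and 385 CPM in M1BP RNAi + ZKSCAN3, against 27290 and 19830 CPM in ZKSCAN3, so that replicate 2 of M1BP RNAi + ZKSCAN3 alone was low. Markers of other tissues also differed between the groups. The 15 salivary gland markers, mostly glue protein genes, summed to 593 and 824 CPM in M1BP RNAi + ZKSCAN3, against 25.2 and 39.6 CPM in ZKSCAN3. Of the 10 that were tested none passed, 8 had an unadjusted p under 0.05 and 8 were called by DESeq2. The part of this tissue in the genes that rose was not tested. The 10 tested hemocyte markers summed to 216 and 108 CPM in M1BP RNAi + ZKSCAN3, against 863 and 1164 CPM in ZKSCAN3, and 1 of them, Pxn, passed the test. Most of the ZKSCAN3 sums came from Pxn, PPO1 and PPO2, at 345.1, 153.5 and 207.4 CPM in replicate 1 and 885.1, 50.29 and 66.58 CPM in replicate 2. The 16 muscle markers summed to 189 and 281 CPM in M1BP RNAi + ZKSCAN3, against 483 and 547 CPM in ZKSCAN3, and Act87E and bt passed the test. Midgut markers summed to 560 and 159 CPM in M1BP RNAi + ZKSCAN3, against 343 and 521 CPM in ZKSCAN3. Neuron markers summed to 382 and 285 CPM in M1BP RNAi + ZKSCAN3, against 457 and 398 CPM in ZKSCAN3, and testis markers to 5.46 and 3.03 CPM in M1BP RNAi + ZKSCAN3, against 11.3 and 20.6 CPM in ZKSCAN3. None of these passed the test, and DESeq2 called 4 midgut, 0 neuron and 1 testis marker. Among the other libraries, replicate 1 of M1BP RNAi without ZKSCAN3 stood apart, with 105 CPM of testis markers and 621 CPM of salivary gland markers.

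**Figure D1:**
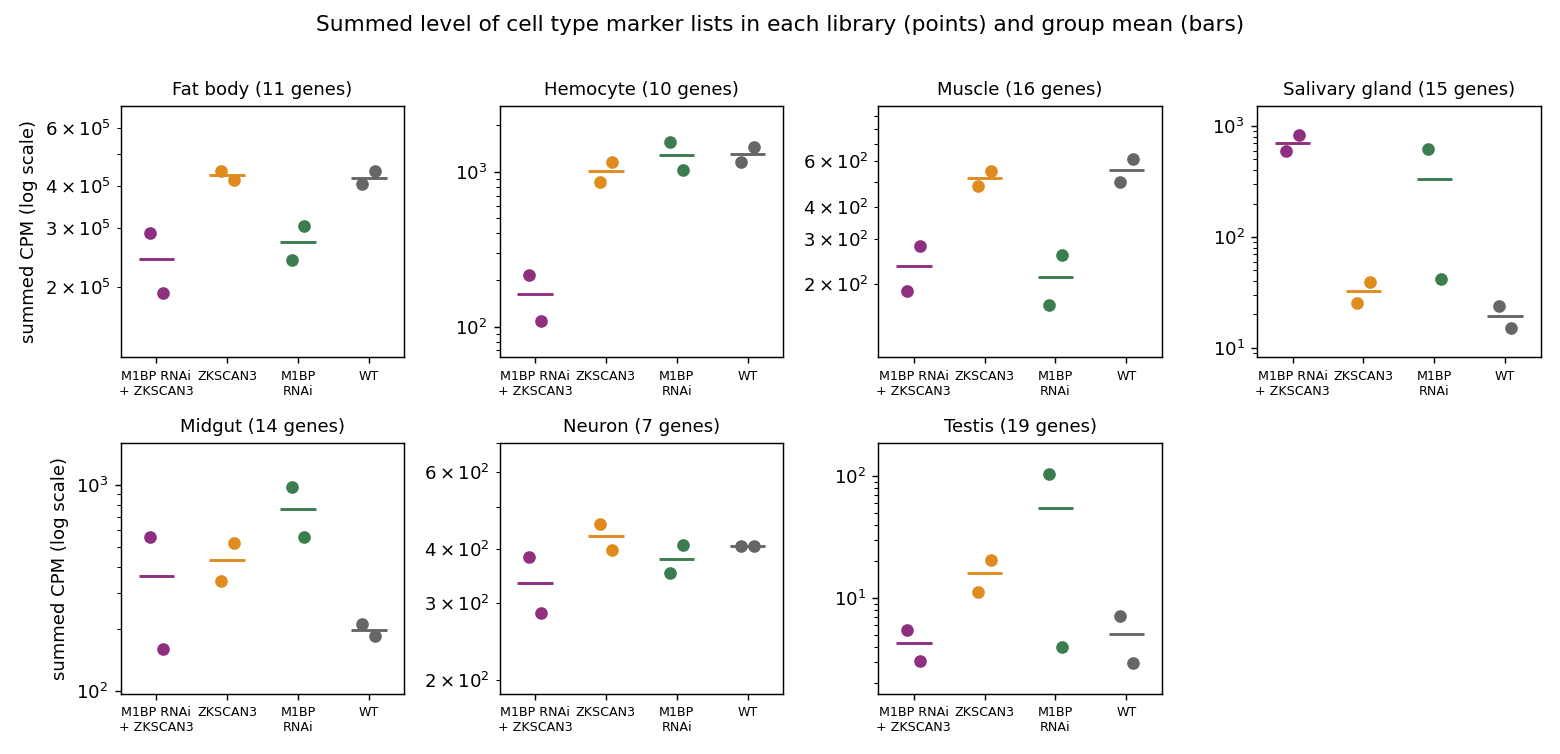
Summed CPM of each list of cell type markers in the 8 male libraries (log axis), one point per library, with M1BP RNAi genotypes left of the genotype they are set against. Salivary gland markers lie at 593 and 824 CPM in M1BP RNAi + ZKSCAN3, above the 25.2 and 39.6 CPM of ZKSCAN3, and hemocyte and muscle markers lie lower in M1BP RNAi + ZKSCAN3 than in ZKSCAN3.

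M1BP itself had 8.25 and 8.52 CPM in M1BP RNAi + ZKSCAN3 fat bodies, against 13.2 and 15.1 CPM in ZKSCAN3 fat bodies. The groups did not overlap, as for 55.1% of all genes. M1BP fell (log2 fold change -0.76 ± 0.13 SE, adjusted p = 0.0387 in edgeR's quasi-likelihood test over all genes), which left 0.592 of the level in ZKSCAN3 fat bodies. The call was lost when any of the 8 male libraries was left out, with adjusted p up to 0.222. Without ZKSCAN3, in M1BP RNAi against WT, M1BP fell by 1.27 on the log2 scale (adjusted p = 0.00776), and the difference between both changes did not pass its test (0.51 ± 0.19 SE, adjusted p = 0.279). The hairpin line belongs to a collection in which some lines misexpress tio, a zinc finger gene beside a landing site of the transgene. tio had 2.26 and 2.72 CPM in M1BP RNAi + ZKSCAN3, against 0.725 and 0.769 CPM in ZKSCAN3, and rose (log2 fold change 1.73, adjusted p = 0.0349, up to 0.19 with a library left out). w, the eye colour gene that also marks transgenes, had 314 and 643 CPM in M1BP RNAi + ZKSCAN3, against 43.0 and 130 CPM in ZKSCAN3, and did not pass the test (adjusted p = 0.0705). y, a body colour gene that likewise marks some transgenes, had 56 and 124 counts in M1BP RNAi + ZKSCAN3, against 1 and 2 counts in ZKSCAN3. The ratio was 38.3 with an exact 95% counting interval of 12.9 to 187. The interval leaves out the spread between libraries and counts each read of a pair, so it can be too narrow. y rose (adjusted p = 0.0225), but the call did not hold with every library left out. Without ZKSCAN3 it had 3.10 and 3.60 CPM in M1BP RNAi, against 0 CPM in both WT libraries. The part of the genetic background in other genes was not tested. tsh, RpL32 and Act5C did not pass either, with log2 fold changes of -0.39, -0.13 and -0.31. The RNA of ZKSCAN3 itself was not analysed here, since the counts are of Drosophila genes.

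Of 11723 genes tested, 514 (4.38%) passed an adjusted p of 0.05. In M1BP RNAi + ZKSCAN3 fat bodies 328 genes were higher (2.8% of those tested, median log2 fold change 1.78) and 186 were lower (1.59%, median -1.54), while the median over all genes was -0.03. In 446 of the 514 the change was at least 1 on the log2 scale. The shares of all tested genes, 2.8% higher and 1.59% lower, are those to set beside the called members of each list below. The CPM of both groups did not overlap for any of the 514, as for 55.1% of all genes. A lack of overlap given for a called gene below therefore adds nothing to its call. No gene passed 0.001, the threshold of the study, in edgeR, 665 did in DESeq2 with all 8 libraries, and 2700 genes (23%) had an unadjusted p under 0.05. The count of calls depended on the libraries: it was 1147 without M1BP RNAi + ZKSCAN3 replicate 1, fell to 83 when replicate 2 of that genotype was left out instead, and was 122 without ZKSCAN3 replicate 1 and 115 without ZKSCAN3 replicate 2. It also fell when any library of M1BP RNAi or WT was left out. These bear on the comparison only through the shared spread, the filter on low counts and the scaling. No called gene changed sign in any of these fits, and 36 genes (27 higher, 9 lower) passed the test in all 8 of them. In bulk tissue, fewer cells of a type and less RNA per cell cannot be told apart, and this holds for every gene below.

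Several of the genes with the largest increases encode immune effectors. In the humoral response of the fly, the receptor Toll and the NF-kappaB factors Dif and Dorsal drive small secreted peptides, among them Drosomycins, Bomanins, Daishos and Baramicin. Drsl5, a drosomycin-like gene, had 110 and 172 CPM in M1BP RNAi + ZKSCAN3, against 0.459 and 0.404 CPM in ZKSCAN3. It was near absence in both ZKSCAN3 libraries, and it rose by 8.34 ± 0.31 (SE) on the log2 scale (adjusted p = 0.00114, the smallest of all genes tested). The Bomanin BomS3 had 81.1 and 95.9 CPM in M1BP RNAi + ZKSCAN3, against 0.0353 and 0.692 CPM in ZKSCAN3 (log2 fold change 7.95 ± 0.97, adjusted p = 0.0172). BomS2 had 14.4 and 23.0 CPM in M1BP RNAi + ZKSCAN3, against 0.053 and 0.0961 CPM in ZKSCAN3 (log2 fold change 7.95 ± 0.44, adjusted p = 0.00354). BaraA1, which encodes Baramicin, had 28.0 and 27.6 CPM in M1BP RNAi + ZKSCAN3, against 0.318 and 0.557 CPM in ZKSCAN3 (log2 fold change 5.99 ± 0.30, adjusted p = 0.00284). In none of these did the groups overlap, and the ZKSCAN3 libraries were low in all. Dso1 and Dso2, the Daishos, had no count in either ZKSCAN3 library, and their 705 and 877 counts in M1BP RNAi + ZKSCAN3 put them at least 150-fold and at least 187-fold higher, with 3 counts over both ZKSCAN3 libraries as the floor. Drs, Drosomycin itself, had 282 and 57.5 CPM in M1BP RNAi + ZKSCAN3, against 2.53 and 1.81 CPM in ZKSCAN3, and rose by 6.29 ± 1.05 on the log2 scale.

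A list of 22 measured peptides known to follow Toll was put together after the values had been seen. The filter on low counts kept 16 of them, of which 10 rose and none fell. Dso1, Dso2 and others passed this filter through their counts with M1BP RNAi, so these numbers describe the genes tested and not the whole list. The other 6, Drsl1, Drsl2, Drsl3, Drsl4, Drsl6 and BomBc3, were not tested, and of these Drsl2 had 2 and 2 counts in M1BP RNAi + ZKSCAN3, against 319 and 0 counts in ZKSCAN3. Drsl5, BomS2, BomT2 and BaraA1 passed the test with any library left out, while BomS3, Drs, Dso1, Dso2, BomBc1 and BomBc2 lost the call in at least 1 such fit. Summed over all 22, the level was 564 and 444 CPM in M1BP RNAi + ZKSCAN3, against 9.35 and 6.30 CPM in ZKSCAN3. The wider list of antimicrobial peptides held 24 genes, of which the filter kept 18. Of these, 6 rose and 1 fell, with a median of 0.46. BomS2 and Dso2 among them passed the filter through their counts with M1BP RNAi, so these numbers too describe only the genes tested. The 1 that fell was Dro, Drosocin, which follows mainly the Imd pathway, with 2 and 1 counts in M1BP RNAi + ZKSCAN3, against 20 and 33 counts in ZKSCAN3, and its call was lost with any library left out. Outside the immune genes and the UDP-glycosyltransferases described below, the largest increases among genes with at least 10 CPM were in CG9928 (7.20), lncRNA:CR44459 (6.98), CG43402 (6.90), CG31326 (6.49) and CG12766 (6.39). Of these, CG43402, at 43.7 and 79.2 CPM in M1BP RNAi + ZKSCAN3 against 0.601 and 0.423 CPM in ZKSCAN3, and CG31326, at 23.7 and 19.4 CPM in M1BP RNAi + ZKSCAN3 against 0.265 and 0.211 CPM in ZKSCAN3, held the call with any library left out, while all exon bases of lncRNA:CR44459 also belong to lncRNA:CR44458.

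Some genes of the pathway that drives these peptides rose too. Of 20 Toll pathway genes, listed after the values had been seen, 4 rose (20%) and none fell, with a median of -0.18. Most of the list went the other way, with 13 negative and 7 positive log2 fold changes. At an unadjusted p under 0.05, 5 were higher and 5 lower. SPH93, a serine protease homologue, had 884 and 833 CPM in M1BP RNAi + ZKSCAN3, against 149 and 143 CPM in ZKSCAN3 (log2 fold change 2.56 ± 0.24, adjusted p = 0.0122). Tl, the Toll receptor, had 241 and 316 CPM in M1BP RNAi + ZKSCAN3, against 80.2 and 70.6 CPM in ZKSCAN3 (log2 fold change 1.88 ± 0.20, adjusted p = 0.0129). Both were higher in each M1BP RNAi + ZKSCAN3 library than in either ZKSCAN3 library. Dif and cactin, which acts on the Toll inhibitor Cactus, rose by 0.84 and 1.76. All 4 calls were lost in at least 1 fit with a library left out, with adjusted p up to 0.192. Outside the list, and chosen after their values were seen, key, a kinase complex subunit of the Imd pathway, and Sting, a sensor of cyclic dinucleotides, fell by 1.27 and 1.32 on the log2 scale.

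**Figure D2:**
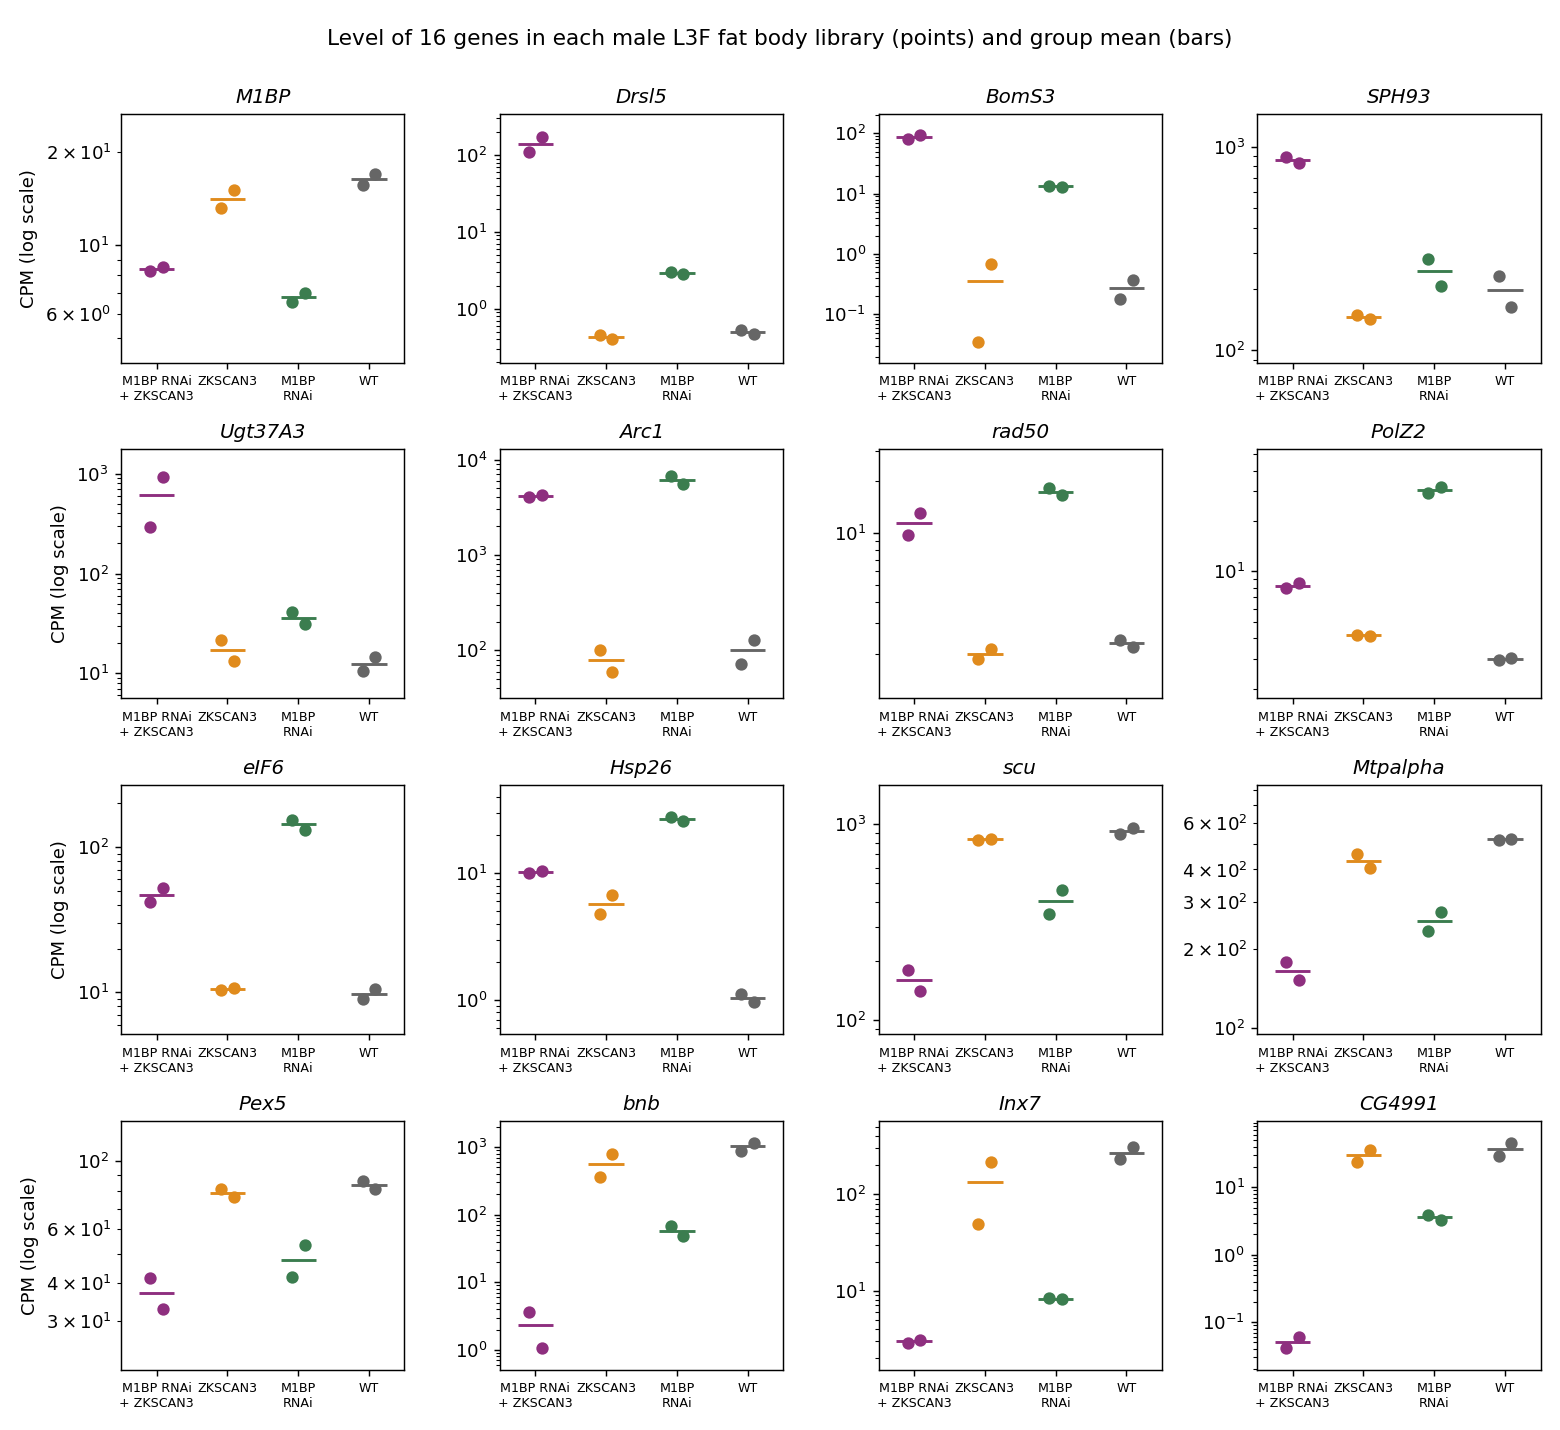
CPM of 16 genes in the 8 male libraries (log axis), points for libraries and bars for the mean of the 2 libraries of a genotype, with genotypes in the order M1BP RNAi + ZKSCAN3, ZKSCAN3, M1BP RNAi and WT. Drsl5 lies at 110 and 172 CPM in M1BP RNAi + ZKSCAN3 against under 1 CPM in ZKSCAN3, while scu, Mtpalpha, Pex5, bnb, Inx7 and CG4991 lie lower in both M1BP RNAi + ZKSCAN3 libraries than in both ZKSCAN3 libraries.

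Genes of detoxification, whose enzymes oxidise, conjugate and export foreign or waste compounds, rose in part. Of 35 UDP-glycosyltransferases, which attach sugars to small molecules and were listed after the values had been seen, 27 passed the filter on low counts. Among these 6 rose and none fell, with a median of 0.46. Ugt302K1, with 9 and 4 counts in ZKSCAN3, passed the filter through its counts with M1BP RNAi, so these numbers describe only the genes tested. Ugt37A2 had 62.7 and 407 CPM in M1BP RNAi + ZKSCAN3, against 1.17 and 1.56 CPM in ZKSCAN3 (log2 fold change 7.43 ± 0.99, adjusted p = 0.0203). Ugt37A3 had 289 and 939 CPM in M1BP RNAi + ZKSCAN3, against 21.5 and 13.1 CPM in ZKSCAN3 (log2 fold change 5.15 ± 0.65, adjusted p = 0.0187). The groups were far apart in both genes, and replicate 2 of M1BP RNAi + ZKSCAN3 was the higher library. Ugt302K1, with 7.59 and 15.9 CPM in M1BP RNAi + ZKSCAN3 against 0.159 and 0.0769 CPM in ZKSCAN3, was the member of the list that passed the test with any library left out.

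Of 33 tested glutathione S-transferases, which couple glutathione to reactive compounds, 3 rose (9.09%) and 1 fell (3.03%), with a median of 0.01. GstD9 had 165 and 183 CPM in M1BP RNAi + ZKSCAN3, against 26.3 and 18.3 CPM in ZKSCAN3, and rose by 2.96 ± 0.24 on the log2 scale (adjusted p = 0.00743, at most 0.0318 with a library left out). GstE6 and GstD3 rose by 2.06 and 1.89 and GstT4 fell by 2.48, and these calls did not hold with every library left out. Of 76 tested cytochrome P450 genes 6 rose (7.89%, beside 2.8% of all genes) and 3 fell (3.95%, beside 1.59%), with a median of -0.20. Cyp12d1-d, a mitochondrial P450 known from insecticide responses, had 23.1 and 15.5 CPM in M1BP RNAi + ZKSCAN3, against 2.26 and 1.21 CPM in ZKSCAN3 (log2 fold change 3.47, adjusted p = 0.0139, up to 0.0506 with a library left out). Of 12 ABC subfamily C transporters, which export conjugates, rdog and CG31793 rose (16.7%) and none fell, with a median of 0.21. rdog had 39.9 and 46.4 CPM in M1BP RNAi + ZKSCAN3, against 12.7 and 12.7 CPM in ZKSCAN3, and was called with any library left out (log2 fold change 1.77 ± 0.13, adjusted p = 0.00712). Of 18 heat-shock proteins only Hsp22 passed (5.56%), at 33.0 and 136 CPM in M1BP RNAi + ZKSCAN3 against 8.87 and 10.3 CPM in ZKSCAN3. All of its exon bases also belong to CG4456, so its reads cannot be assigned to it alone.

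Some of the genes that sense and repair DNA damage rose as well. Of 26 tested members of a list made after the values had been seen, 9 rose (34.6%) and none fell. Their median log2 fold change was 0.92. rad50, part of the complex that holds broken DNA ends, had 9.74 and 13.1 CPM in M1BP RNAi + ZKSCAN3, against 1.86 and 2.13 CPM in ZKSCAN3 (log2 fold change 2.52 ± 0.20, adjusted p = 0.00743). p53, the transcription factor of the damage response, had 12.4 and 12.5 CPM in M1BP RNAi + ZKSCAN3, against 2.16 and 3.09 CPM in ZKSCAN3 (log2 fold change 2.25 ± 0.23, adjusted p = 0.0129). Ssrp, a subunit of the FACT histone chaperone, had 55.3 and 64.6 CPM in M1BP RNAi + ZKSCAN3, against 12.7 and 9.80 CPM in ZKSCAN3 (log2 fold change 2.42 ± 0.17, adjusted p = 0.00712). The groups stood apart in all 3 genes, and these 3 held the call with any library left out. RPA1, which covers single-stranded DNA, had 44.5 and 59.2 CPM in M1BP RNAi + ZKSCAN3, against 12.4 and 14.8 CPM in ZKSCAN3. It rose by 1.93, as did nbs by 2.11, tefu, the ATM kinase, by 2.26, Irbp, a Ku subunit, by 1.71, dre4, the other FACT subunit, by 1.10 and PolZ2, a subunit of a translesion polymerase, by 0.98. These 6 lost the call in at least 1 fit with a library left out. Of 17 DNA replication genes none passed in either direction and 7 had an unadjusted p under 0.05, all higher, with a median of 0.96, and DESeq2 called 5. Arc1, which encodes a capsid-forming protein that carries its own RNA, had 4032 and 4212 CPM in M1BP RNAi + ZKSCAN3, against 101 and 59.8 CPM in ZKSCAN3, and rose by 5.68 ± 0.43 on the log2 scale (adjusted p = 0.00743, at most 0.0271 with a library left out). Arc1 was chosen after its values were seen.

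Many genes for making ribosomes rose, and no protein gene of the cytoplasmic ribosome itself passed the test. Of 30 ribosome biogenesis genes, listed after the values had been seen, 14 rose (46.7%) and none fell. All 30 log2 fold changes were positive and their median was 1.62. eIF6, which keeps the large subunit from joining too early, had 41.8 and 52.3 CPM in M1BP RNAi + ZKSCAN3, against 10.4 and 10.8 CPM in ZKSCAN3 (log2 fold change 2.15 ± 0.18, adjusted p = 0.00769), and was the member of the list called with any library left out. Fib, the rRNA methylase fibrillarin, had 28.1 and 56.6 CPM in M1BP RNAi + ZKSCAN3, against 7.35 and 10.5 CPM in ZKSCAN3 (log2 fold change 2.25 ± 0.38, adjusted p = 0.0333). Both groups were apart in both genes, and Fib was higher in replicate 2 than in replicate 1 of M1BP RNAi + ZKSCAN3, as was the sum over the list at 644 and 1001 CPM in M1BP RNAi + ZKSCAN3, against 374 and 378 CPM in ZKSCAN3. Of 88 cytoplasmic ribosomal protein genes none passed, with 2 higher and none lower at an unadjusted p under 0.05, 0 called by DESeq2 and a median of -0.12. Of 72 mitochondrial ribosomal protein genes mRpS6 and mRpL45 rose, 2.78% beside 2.8% of all genes, 71 had positive log2 fold changes, and the median was 0.79. Both calls were lost in several fits with a library left out, with adjusted p up to 0.301. Of 21 nucleoporins, listed after the values had been seen, Nup358 and Nup98-96 rose (9.52%), by 1.01 and 1.03, with a median of 0.47. Neither call held with every library left out. The list was not complete, and Ndc1, a membrane nucleoporin outside it, rose by 1.62 (adjusted p = 0.0129).

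Several genes of fat breakdown fell. In beta-oxidation, fatty acids lose their carbons stepwise, very long chains in peroxisomes first and most others in mitochondria. Of 11 mitochondrial beta-oxidation genes, listed after the values had been seen, 4 fell (36.4%) and none rose. All 11 had negative log2 fold changes and unadjusted p under 0.05, and the median was -1.30. scu, a hydroxyacyl-CoA dehydrogenase, had 180 and 140 CPM in M1BP RNAi + ZKSCAN3, against 835 and 836 CPM in ZKSCAN3 (log2 fold change -2.38 ± 0.21, adjusted p = 0.0107). Mtpalpha, a subunit of the trifunctional enzyme for long chains, had 178 and 152 CPM in M1BP RNAi + ZKSCAN3, against 457 and 405 CPM in ZKSCAN3 (log2 fold change -1.39 ± 0.17, adjusted p = 0.0172). Neither group reached the other in these 2 genes. Mtpbeta, the other subunit, fell by 1.22 and Echs1, an enoyl-CoA hydratase, by 1.64. Leaving out M1BP RNAi + ZKSCAN3 replicate 2 ended all 4 calls, with an adjusted p of 0.072 for scu and between 0.143 and 0.23 for Mtpalpha, Mtpbeta and Echs1. whd, the carnitine palmitoyltransferase that lets fatty acids into mitochondria, had 100 and 41.3 CPM in M1BP RNAi + ZKSCAN3, against 211 and 137 CPM in ZKSCAN3, and did not pass (adjusted p = 0.141).

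Several peroxisomal genes fell too. Of 13 peroxins, the proteins that build peroxisomes, listed after the values had been seen, 5 fell (38.5%) and none rose. Their median was -0.32. Pex5, the receptor that imports peroxisomal enzymes, had 41.5 and 32.8 CPM in M1BP RNAi + ZKSCAN3, against 81.1 and 76.3 CPM in ZKSCAN3 (log2 fold change -1.08 ± 0.18, adjusted p = 0.0333). Pex10, a ring finger protein of the same import cycle, fell by 1.17, Pex13, the docking protein, by 1.08, and Pex16, which sorts membrane proteins, by 0.77. Of 13 peroxisomal enzymes and transporters, listed likewise, 6 fell (46.2%) and none rose, with a median of -0.99. Mfe2, the multifunctional enzyme of peroxisomal beta-oxidation, had 58.7 and 56.9 CPM in M1BP RNAi + ZKSCAN3, against 119 and 135 CPM in ZKSCAN3 (log2 fold change -1.13 ± 0.14, adjusted p = 0.0187). Hacl, a lyase of branched fatty acids, had 85.4 and 56.6 CPM in M1BP RNAi + ZKSCAN3, against 212 and 191 CPM in ZKSCAN3 (log2 fold change -1.50 ± 0.22, adjusted p = 0.0237). ScpX, Acox57D-p, PMP34 and Amacr fell by between 0.96 and 1.27. Cat, catalase, did not pass, with 1331 and 1556 CPM in M1BP RNAi + ZKSCAN3, against 1943 and 1302 CPM in ZKSCAN3, and its groups overlapped. None of the 11 peroxisomal calls held with every library left out, with adjusted p up to 0.33. Of 19 genes of fat synthesis and breakdown Mtpalpha and Mtpbeta fell (10.5%) and none rose, with a median of -0.69. Of 83 oxidative phosphorylation genes none passed, with 1 higher and 1 lower at an unadjusted p under 0.05, 0 called by DESeq2 and a median of 0.08. Summed fat body markers were lower in the same libraries, as given above, and their part in these differences was not tested.

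**Figure D3:**
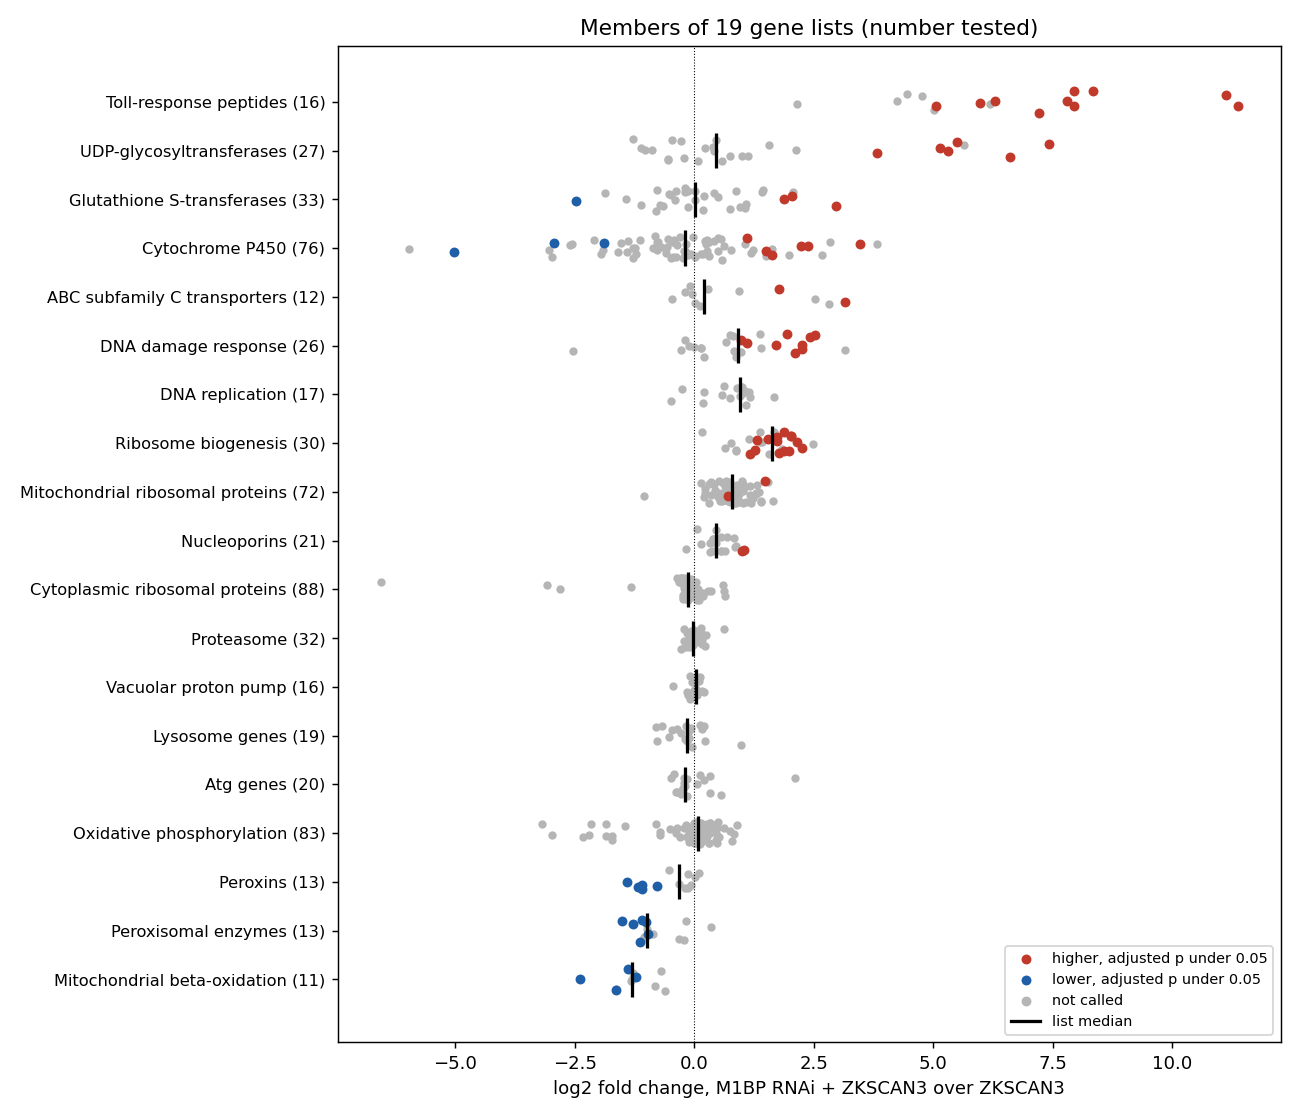
Log2 fold changes of M1BP RNAi + ZKSCAN3 over ZKSCAN3 for the tested members of 19 gene lists, one point per gene, coloured where the gene passed an adjusted p of 0.05, with a bar at the median of 18 of the lists. Ribosome biogenesis has a median of 1.62 and mitochondrial beta-oxidation one of -1.30, and no median is drawn for the Toll-response peptides, since the filter on low counts kept 16 of 22.

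Among called genes that averaged at least 10 CPM in ZKSCAN3 fat bodies, the largest decreases were in CG4991, bnb, Shab and 7 further genes. Below that level, CG45060 had 1 and 0 counts in M1BP RNAi + ZKSCAN3, against 143 and 626 counts in ZKSCAN3. CG4991 had 0.0418 and 0.061 CPM in M1BP RNAi + ZKSCAN3, against 23.5 and 36.1 CPM in ZKSCAN3. With 3 and 6 counts in M1BP RNAi + ZKSCAN3 the level in ZKSCAN3 was 558 times as high. The exact 95% counting interval was 293 to 1.22e+03. It leaves out the spread between libraries and counts each read of a pair, so it can be too narrow. The fitted change was -9.10 ± 0.47 on the log2 scale (adjusted p = 0.00284). bnb had 3.62 and 1.08 CPM in M1BP RNAi + ZKSCAN3, against 357 and 779 CPM in ZKSCAN3 (log2 fold change -7.93 ± 0.81, adjusted p = 0.0129). Shab, a voltage-gated potassium channel, had 0.125 and 0.183 CPM in M1BP RNAi + ZKSCAN3, against 10.2 and 19.1 CPM in ZKSCAN3 (log2 fold change -6.53 ± 0.44, adjusted p = 0.0062). CG4991 and Shab were near absence in both M1BP RNAi + ZKSCAN3 libraries, bnb was low there but counted, and CG4991, bnb, Shab and the serine protease Ser7 (-5.88) held the call with any library left out. Inx7, a gap junction innexin, had 2.85 and 3.10 CPM in M1BP RNAi + ZKSCAN3, against 49.4 and 217 CPM in ZKSCAN3 (log2 fold change -5.48 ± 0.73, adjusted p = 0.0203). CG6602, the tetraspanin TM4SF, the NADPH oxidase Nox and the P450 gene Cyp304a1 fell by between 5.02 and 6.10, and these 4 and Inx7 lost the call without M1BP RNAi + ZKSCAN3 replicate 2. nAChRbeta3 fell by 4.85, but all of its exon bases also belong to Ets21C, so its reads cannot be assigned to it alone. Of the exon bases of Ets21C 28.3% were shared. Ets21C had 759 and 242 counts in M1BP RNAi + ZKSCAN3, against 6098 and 12755 counts in ZKSCAN3. nAChRbeta3 had 732 and 200 counts there, against 6093 and 12746, so most counts of Ets21C lay in the shared bases.

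A few markers of hemocytes and muscle fell in the same libraries. Pxn, a peroxidase of basement membranes made by hemocytes, had 43.3 and 8.92 CPM in M1BP RNAi + ZKSCAN3, against 345 and 885 CPM in ZKSCAN3 (log2 fold change -4.56 ± 0.85, adjusted p = 0.0432, up to 0.135 with a library left out). Hml, the hemocyte marker hemolectin, had 25.3 and 11.6 CPM in M1BP RNAi + ZKSCAN3, against 54.4 and 86.9 CPM in ZKSCAN3 and did not pass (adjusted p = 0.0549), while NimC1, a phagocytosis receptor, had 5.64 and 10.6 CPM in M1BP RNAi + ZKSCAN3 against 2.90 and 2.34 CPM in ZKSCAN3 (adjusted p = 0.0765). In this list 8 of 10 had negative values, with a median of -1.66. Of the muscle list all 16 were negative, with a median of -1.31. bt, a giant muscle kinase, had 22.7 and 26.6 CPM in M1BP RNAi + ZKSCAN3, against 84.9 and 80.2 CPM in ZKSCAN3, and its call was lost in 6 of the 8 fits with a library left out. The part of these cell types in the genes that fell was not tested. No hemocyte or muscle marker tested was at 0 in any of the 4 libraries.

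Autophagy genes did not pass the test. The Atg proteins start, extend and close the autophagosome. Of 20 Atg genes none was called in either direction, with 1 higher and 1 lower at an unadjusted p under 0.05 and a median log2 fold change of -0.20, beside -0.03 for all genes. DESeq2 called 0 of them as well, with all 8 libraries and with only the 4 compared. Atg8a, whose protein is attached to the autophagosome membrane, had 152 and 104 CPM in M1BP RNAi + ZKSCAN3, against 178 and 119 CPM in ZKSCAN3 (log2 fold change -0.21 ± 0.27, adjusted p = 0.665). Atg1, the kinase that starts the process, had 39.0 and 22.5 CPM in M1BP RNAi + ZKSCAN3, against 47.7 and 23.9 CPM in ZKSCAN3 (log2 fold change -0.22 ± 0.45, adjusted p = 0.797). Both genes overlapped between the groups. Atg17, a scaffold of the Atg1 complex, had 62.6 and 74.5 CPM in M1BP RNAi + ZKSCAN3, against 54.9 and 37.9 CPM in ZKSCAN3 (log2 fold change 0.56 ± 0.20, adjusted p = 0.165), and Atg13, its partner, had 24.9 and 18.6 CPM in M1BP RNAi + ZKSCAN3, against 29.9 and 30.5 CPM in ZKSCAN3 (log2 fold change -0.48 ± 0.17, adjusted p = 0.165). Neither overlapped between groups, as for 55.1% of all genes, and neither passed. Apart from Atg8b, which had at most 0.167 CPM in these 4 libraries, the members lay between -0.48 and 0.56 on the log2 scale. Atg1, Atg2, Atg4a, Atg7, Atg8a and Atg18b changed sign when 1 library was left out, so that their direction is not set by these data. Without ZKSCAN3, M1BP RNAi raised Atg17 (0.91, adjusted p = 0.0474) and lowered Atg13 (-1.01, adjusted p = 0.0244). Atg18b, Atg7, Atg1 and Atg8a had 1.84, 1.43, 1.19 and 0.70 there and did not pass (adjusted p = 0.0692, 0.141, 0.147 and 0.153). The median of the 20 without ZKSCAN3 was 0.17, and Atg2, Atg4b, Atg9, Atg13 and Atg101 were negative. In Atg18b, Atg7, Atg1 and Atg8a the change with ZKSCAN3 minus that without was -1.98, -1.67, -1.41 and -0.91. No Atg gene passed the test of this difference.

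Other pathways around autophagy and growth were likewise without calls at an adjusted p of 0.05. None passed in either direction among 19 lysosome genes (median -0.16), 16 subunits of the vacuolar proton pump (0.03), 23 genes of insulin, TOR and AMPK signalling (-0.01), 32 proteasome subunits (-0.02), 12 glycolysis genes (0.17), 11 genes of the citric acid cycle (0.34) and 6 Hox genes and cofactors (-0.05). At an unadjusted p under 0.05 these lists had 2 lysosome genes lower, 4 insulin, TOR and AMPK genes higher, 2 glycolysis genes and 2 citric acid cycle genes in each direction, and 1 Hox gene in each. DESeq2 with all 8 libraries called 1 lysosome gene, 0 proton pump subunits, 1 gene of insulin, TOR and AMPK signalling, 0 proteasome subunits, 3 glycolysis genes, 3 citric acid cycle genes and 1 Hox gene. Of 17 genes of the response to ecdysone, the moulting hormone, MsrA fell (5.88%) and none rose, with a median of -0.37. MsrA, a methionine sulfoxide reductase, had 25.6 and 17.4 CPM in M1BP RNAi + ZKSCAN3, against 85.3 and 70.4 CPM in ZKSCAN3 (log2 fold change -1.86 ± 0.26, adjusted p = 0.0225, up to 0.0933 with a library left out). Of 17 promoter and insulator factors M1BP alone passed, with a median of 0.13.

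The knockdown without ZKSCAN3, M1BP RNAi against WT, was measured in other libraries, though in the same fit. It called 964 genes (8.22% of those tested), 461 higher (3.93%) and 503 lower (4.29%), of which 299 were also called with ZKSCAN3 present, 58.17% of the list with ZKSCAN3 and 31.02% of the list without. Of these 299, 295 moved in the same direction, 179 higher and 116 lower, and 4 in opposite directions. Among the 328 genes that rose with ZKSCAN3 present, 94.8% had a positive log2 fold change without it, and among the 186 that fell 95.2% had a negative one, while 57.8% of all genes had the same sign in both. The median log2 fold changes of the genes that rose were 1.78 with ZKSCAN3 and 1.30 without it, and those of the genes that fell were -1.54 with ZKSCAN3 and -1.19 without it. Arc1 had 6741 and 5579 CPM in M1BP RNAi, against 72.8 and 128 CPM in WT, so that it rose by 5.68 with ZKSCAN3 and by 5.94 without it. rdog rose by 1.77 in both. Over all 11723 genes Spearman's rho between both sets of log2 fold changes was 0.0913 and Pearson's r was -0.0739, where each point is a gene and genes are not independent. Neither sign was stable: over the other settings and with each library left out, rho lay between -0.117 and 0.431 and r between -0.255 and 0.416, and both were lowest when replicate 1 of M1BP RNAi + ZKSCAN3 was left out. Without M1BP RNAi replicate 1, the library with testis and salivary gland markers, rho was 0.431 and r was 0.416, the same-sign shares were 94.2% and 95.7% for the genes that rose and fell and 65.3% for all genes, and M1BP RNAi against WT called 113 genes. Without M1BP RNAi replicate 2 it called 1507 genes, and without WT replicates 1 and 2 it called 10 and 11 genes.

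**Figure D4:**
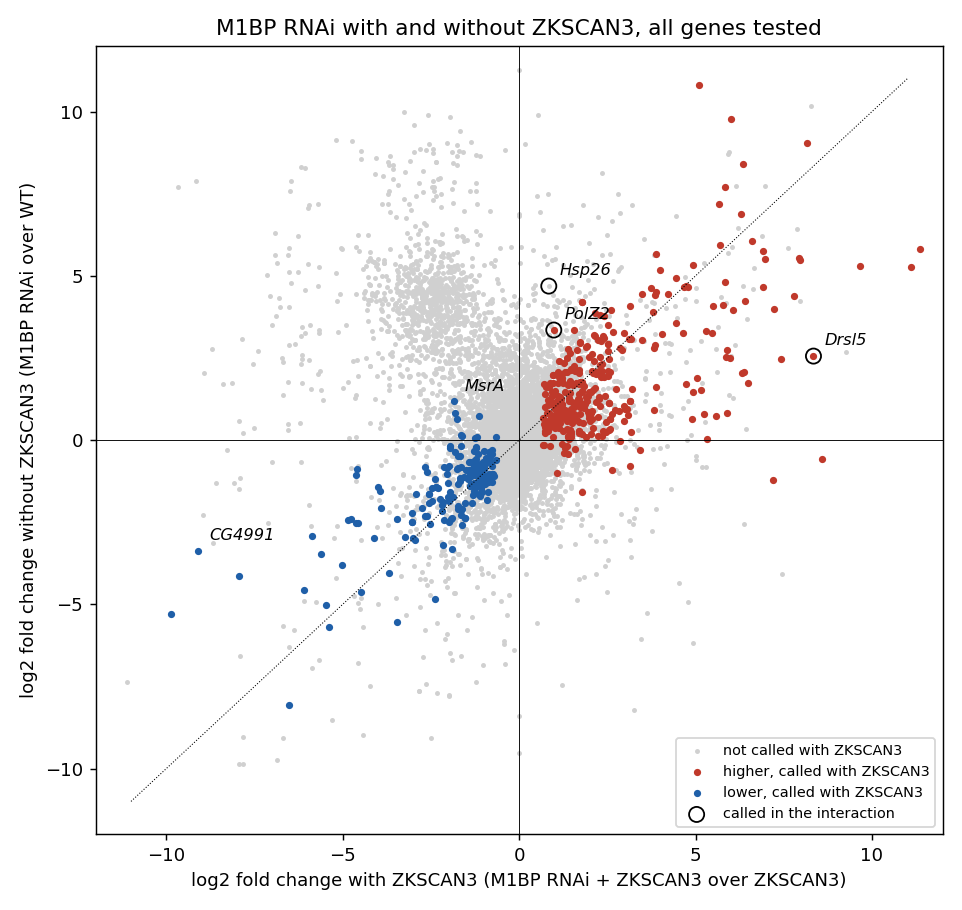
Log2 fold change of each tested gene in M1BP RNAi + ZKSCAN3 over ZKSCAN3 (horizontal axis) and in M1BP RNAi over WT (vertical axis), with genes called with ZKSCAN3 present in colour. Of the genes that rose with ZKSCAN3, 94.8% lie above 0 on the vertical axis, and of those that fell 95.2% lie below 0, while 57.8% of all genes have the same sign on both axes.

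The difference between the M1BP RNAi change with and without ZKSCAN3 passed its own test in 3 genes (0.0256%), and 2083 genes (17.8%) had an unadjusted p under 0.05. Drsl5, with 3.04 and 2.86 CPM in M1BP RNAi against 0.531 and 0.471 CPM in WT, rose by 8.34 with ZKSCAN3 and by 2.56 without it, a difference of 5.79 (adjusted p = 0.0292). Hsp26, a small heat-shock protein, had 10.1 and 10.4 CPM in M1BP RNAi + ZKSCAN3, against 4.77 and 6.69 CPM in ZKSCAN3, and 28.0 and 25.6 CPM in M1BP RNAi, against 1.12 and 0.958 CPM in WT. Its change was 0.84 with ZKSCAN3, which did not pass, and 4.69 without, so the difference was -3.85 (adjusted p = 0.0292). PolZ2 had 7.93 and 8.47 CPM in M1BP RNAi + ZKSCAN3, against 4.17 and 4.13 CPM in ZKSCAN3, and 29.6 and 31.7 CPM in M1BP RNAi, against 2.95 and 3.05 CPM in WT, with a difference of -2.37 (adjusted p = 0.0292). The M1BP RNAi change was thus larger with ZKSCAN3 in Drsl5 and smaller with ZKSCAN3 in Hsp26 and PolZ2. CG3448 and CG4991 followed with differences of -1.82 and -5.72 and missed the threshold (adjusted p = 0.0501 for both). MsrA, which fell with ZKSCAN3, rose by 1.18 without it (adjusted p = 0.0469), and the difference of -3.03 did not pass (adjusted p = 0.0996). The number of genes called for the difference was 0 when WT replicate 1, WT replicate 2, M1BP RNAi replicate 1 or ZKSCAN3 replicate 1 was left out and 12 when ZKSCAN3 replicate 2 was. Of the M1BP RNAi + ZKSCAN3 libraries, leaving out replicate 1 gave 92 and leaving out replicate 2 gave 1, and 199 were called without M1BP RNAi replicate 2. eIF6, Ssrp and RPA1 also had larger values in M1BP RNAi without ZKSCAN3, at 154 and 132 CPM for eIF6 and 132 and 132 CPM for Ssrp, with differences of -1.72, -1.37 and -0.93 that did not pass (adjusted p = 0.167, 0.231 and 0.279).

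At the wandering stage the wild type fat body undergoes autophagy, and female L3W against L3F shows what the same genes do there, in other libraries, another sex and without the driver. L3W against L3F called 48% of the 10720 genes tested, 23.3% higher and 24.7% lower. Of 312 genes that rose with M1BP RNAi in ZKSCAN3 fat bodies and were tested at L3W, 18.27% were higher and 36.22% lower at L3W, against 23.33% and 25.35% of the 10295 genes tested in both. Of 184 genes that fell, 14.67% were higher and 40.22% lower at L3W. Of 19 tested Atg genes 14 were higher at L3W, with a median of 1.10, and Atg1 rose by 3.72 and Atg8a by 2.02. Drsl5 also rose at L3W, by 11.61, and SPH93 by 3.92, whereas GstD9 fell by 3.29 and Echs1 by 2.87.

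The promoters of the genes that responded were read for ZKSCAN3 peaks of S2 cells and for Motif 1, searched as GGTCACACT on both strands. The 8991 peaks were merged by the authors from both S2 replicates, and 1 label of the second replicate names ZKSCAN4 where its title names ZKSCAN3. Before its own comparisons the paper removed peaks in regions bound by numerous factors, and those peaks were kept here. The promoters of 5 genes are shown, chosen after the values had been seen: scu, Mtpalpha and Ndc1 because they hold Motif 1 near the start, PolZ2 because its change differed with ZKSCAN3, and Drsl5 for the Toll peptides. Their share with Motif 1 is therefore set by the choice. Each runs from 150 bases before the outermost start in the FlyBase annotation of the counts to 29 bases past it, in RefSeq's Release 6 genome (dm6), 5′ to 3′ on the strand of the gene, with Motif 1 in capitals. scu lies at chrX:18091109-18091288 on the plus strand and Mtpalpha at chr2L:9576740-9576919 on the minus strand. Ndc1 lies at chr3R:23924249-23924428, PolZ2 at chr3R:5588723-5588902 and Drsl5 at chr3L:3316631-3316810, all on the plus strand. In each the window covers the region before the gene and the first bases of its first exon.
scu: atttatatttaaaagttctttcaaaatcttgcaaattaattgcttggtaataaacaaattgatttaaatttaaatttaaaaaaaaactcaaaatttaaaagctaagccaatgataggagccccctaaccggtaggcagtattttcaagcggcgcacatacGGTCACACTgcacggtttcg
Mtpalpha: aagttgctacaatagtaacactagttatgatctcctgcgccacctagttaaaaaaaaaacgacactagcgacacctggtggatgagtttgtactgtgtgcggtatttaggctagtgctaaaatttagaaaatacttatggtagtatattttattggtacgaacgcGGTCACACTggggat
Ndc1: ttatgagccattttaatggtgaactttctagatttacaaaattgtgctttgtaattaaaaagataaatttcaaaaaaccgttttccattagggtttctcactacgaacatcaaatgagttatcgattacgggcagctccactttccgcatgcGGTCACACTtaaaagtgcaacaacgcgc
PolZ2: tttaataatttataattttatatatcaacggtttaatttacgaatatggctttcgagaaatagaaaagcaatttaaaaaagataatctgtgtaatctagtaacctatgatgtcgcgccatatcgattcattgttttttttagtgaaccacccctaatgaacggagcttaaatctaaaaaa
Drsl5: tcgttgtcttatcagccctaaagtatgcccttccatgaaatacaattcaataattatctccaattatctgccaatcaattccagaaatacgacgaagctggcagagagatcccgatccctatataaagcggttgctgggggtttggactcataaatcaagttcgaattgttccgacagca
Motif 1 began 10, 15 and 2 bases after the start in scu, Mtpalpha and Ndc1, so it stood at the start of 2 genes that fell and 1 that rose. PolZ2 and Drsl5 held no such match in this window, and Drsl5 alone of the 5 had no ZKSCAN3 peak within 500 bases. A match or a peak in another cell type is a description and does not show binding in the fat body.

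Ndc1, a membrane nucleoporin named here for its promoter, had 15.0 and 15.8 CPM in M1BP RNAi + ZKSCAN3, against 4.61 and 5.44 CPM in ZKSCAN3, and rose by 1.62 ± 0.17 (adjusted p = 0.0129, up to 0.051 with a library left out). Over all called genes, a ZKSCAN3 peak lay within 500 bases of the first start in 229 of 324 genes that rose (70.7%, Wilson 95% interval 65.5 to 75.4%) and in 122 of 186 that fell (65.6%, 58.5 to 72%), beside 63.7% of all 11671 tested genes with a known start. Motif 1 stood in the same window in 10.2% of the genes that rose and 8.06% of those that fell, beside 9.83% of all. Within the shorter window printed above the shares were 5.25% and 6.45%, beside 5.95% of all. The genes that fell were more abundant, with a median of 40.1 CPM in ZKSCAN3 fat bodies, than those that rose, with 5.38 CPM, or all tested genes, with 5.51 CPM, and the part of abundance in these shares was not tested.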

How the data were processed

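RNA-seq libraries were grouped by the titles and genotypes deposited with them. The authors aligned reads to dm6 with Subread, and deposited tables of raw counts for 17494 genes, made with featureCounts 1.6.1 on FlyBase release 6.19 with unique alignments, no strand, each mate counted, and a read over several genes counted for each. The deposited count of a gene can therefore include reads of an overlapping gene: 219 of the 514 called genes shared exon bases with another gene, 53 of them over 50%. Of the genes 17358 were paired with a symbol. The deposited score of the S2 peaks comes from the authors' MACS2 calling at 1 list per factor, and the file does not name what it measures. The authors' own fold change tables and the ZKSCAN4 peaks were not used here.

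Genes were filtered with filterByExpr, scaled by TMM and tested by the quasi-likelihood method of edgeR 4.0.16 in R 4.3.3, with p adjusted after Benjamini-Hochberg over all tested genes and a threshold of 0.05. The study set its threshold of 0.001 for DESeq2. It was made an alternative here because earlier results of these data were known to give almost no call at 0.001 in this test. The fit held all 8 male libraries and 4 genotypes, while female libraries had their own fit. Each SE given is the absolute log2 fold change divided by the square root of the F value of its test. It therefore restates the test and is not a separate estimate. The common biological coefficient of variation was 0.462, and log2 differences between replicates had an SD of 0.89 in M1BP RNAi + ZKSCAN3 and 0.995 in ZKSCAN3. A count of 3 corresponded to between 0.0305 and 0.0577 CPM in these 4 libraries. Intervals cover counting error only. The exact ones, and the floor of 3 counts, take counts pooled over both libraries of a genotype as independent. With each mate counted, the exact intervals can be too narrow. Alternatives were DESeq2 1.42.0 with all 8 or only the 4 libraries compared, edgeR with only the 4 libraries, edgeR with size factors of DESeq2, no filter on low counts, a threshold of 0.001 as in the study, an added size limit of 1 on the log2 scale, the replicate number as a block, and each library left out in turn. For promoters they were 1000 bases on each side, every annotated start, higher-scoring peaks and 1 mismatch in Motif 1. Figures were drawn with matplotlib 3.10.9.

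The libraries and gene lists were chosen with earlier results of these data known. Named genes were M1BP, the Atg genes, w, tio, tsh, RpL32 and Act5C, the 10 largest changes in each direction among called genes whose groups did not overlap and whose higher group averaged at least 10 CPM, the 5 smallest p of the difference between knockdowns with at least 10 CPM in a genotype, and up to 3 called members of each list with the smallest p. Genes outside this rule are y, CG45060, Arc1, key, Sting, Ndc1, further list members and markers, named after their values were seen.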

Additional observations from a re-analysis of the deposited data

Results flagged for a closer look

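The change with M1BP RNAi differed between fat bodies with and without ZKSCAN3, by the test of the difference itself, in Drsl5, Hsp26 and PolZ2. The difference, with ZKSCAN3 minus without, was 5.79 on the log2 scale in Drsl5, -3.85 in Hsp26 and -2.37 in PolZ2 (adjusted p = 0.0292 for each in edgeR). With DESeq2 and all 8 libraries the adjusted p were 3.13e-26, 1.13e-22 and 2.52e-16, and with the replicate number as a block in edgeR they were 0.104, 0.115 and 0.104. With a library left out, Drsl5 lay between 5.48 and 6.08 with adjusted p of at most 0.385, Hsp26 between -4.06 and -3.58 and PolZ2 between -2.42 and -2.20, so the sizes varied little while the calls did not hold throughout.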

How the results depend on the processing

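With 2 libraries per genotype the spread was estimated from 4 residual degrees of freedom, which limits every call. At the main setting 328 genes were higher, 186 lower, 3 called for the difference between knockdowns and 295 called in both knockdowns in the same direction. DESeq2 with all 8 libraries gave 1021, 740, 767 and 817, and its calls included all 514. DESeq2 with only the 4 libraries gave 641 higher, 554 lower and 572 in both, and edgeR with only those gave 12, 2 and 9. DESeq2's size factors gave 6 genes for the difference and no filter on low counts gave 17. At a threshold of 0.001 edgeR gave 0 for all 4. DESeq2 at that threshold, a setting added after seeing the data, gave 87 for the difference with all 8 libraries and 196 in both with only the compared libraries. Leaving out each library in turn gave 44 to 806 genes higher, 12 to 341 lower, 0 to 199 for the difference and 7 to 348 in both, and a genotype left with 1 library was assumed to vary like the others. The replicate numbers were shared, but only 2 pairs exist and no label says what they mark, so they were not taken as pairs. Deviations of ZKSCAN3 and M1BP RNAi + ZKSCAN3 libraries of the same number correlated at 0.154. With the replicate block 523 genes were higher, 237 lower, 398 called in both and 0 for the difference. Spearman's rho between both knockdowns over all genes, 0.0913, was -0.006 and -0.011 with DESeq2 and 8 or 4 libraries and -0.004 with no filter, and Pearson's r, -0.0739, was 0.261 in edgeR with only the compared libraries. Among named genes, direction reversed in 7 that were not called, each with a library left out: the log2 fold change spanned -0.25 to 0.019 in RpL32, -0.66 to 0.38 in Atg1, -0.35 to 0.054 in Atg2, -0.51 to 0.0075 in Atg4a, -0.71 to 0.33 in Atg7, -0.50 to 0.12 in Atg8a and -1.05 to 0.42 in Atg18b. Shares of promoters with a ZKSCAN3 peak were 72.8% of genes that rose and 69.4% of genes that fell, beside 66.7% of all, within 1000 bases, and 47.5% and 39.8%, beside 45.2%, with higher-scoring peaks. The causes of these differences between settings were not tested.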
